A study of Homo sapiens with 24 samples.

Results

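The genes described here encode SR proteins and heterogeneous nuclear ribonucleoproteins (hnRNPs), with the TRA2 proteins, the polypyrimidine tract binding (PTB) proteins and 4 kinases that phosphorylate SR proteins. They were chosen by gene symbol, and each of the 41 symbols named a single row among the 28008 genes of the batch 1 table and the 60221 genes of the batch 2 table. RNA had been sequenced from A375 cells, a long-established line from a human melanoma, that carried either a plasmid expressing the long noncoding RNA SLNCR or its backbone. The design asks which genes depend on the triplex-forming regions (TFR) of SLNCR, stretches of the RNA that may bind double-stranded DNA.

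The 24 libraries formed 8 groups of 3 biological replicates. In batch 1 the groups were SLNCR lacking TFR 1 (ΔTFR1), SLNCR lacking TFR 2 (ΔTFR2), full-length SLNCR (FL) and the vector backbone (empty vector). Batch 2 held SLNCR lacking TFR 4 (ΔTFR4), SLNCR lacking TFR 5 (ΔTFR5), and its own FL and empty vector groups. All 8 groups were transfected by lipid with a pcDNA3.1 plasmid that has a CAG promoter and a puromycin resistance gene, and then grew in puromycin (2 µg/mL, 48 h) until the RNA was taken. The cells still carried their own SLNCR gene, and the counts cannot separate its RNA from that of the plasmid.

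SR proteins carry an RNA recognition motif and a tail rich in arginine and serine, and they commonly bind exons and recruit the spliceosome there. Many hnRNPs bind introns or exons and repress splice site use, so that the balance between both families sets the choice of many alternative exons. CLK and SRPK kinases phosphorylate the tails of SR proteins and so set where in the cell they act, and many genes of both families adjust their own level through unproductive splicing.

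Totals ran from 8627449 to 10789211 counts per library in batch 1 and from 24810226 to 33063445 estimated counts in batch 2. Levels are given as CPM, a gene's counts scaled to a fixed library total, so less RNA per cell and fewer cells that express a gene cannot be told apart. SLNCR, named LINC00673 in batch 1, lay at 191 to 205 CPM in ΔTFR1, 187 to 206 in ΔTFR2, 165 to 240 in FL and 18.9 to 20.8 in empty vector. In batch 2 it was read from the row LINC00511, a GENCODE v29 gene that spans both the SLNCR gene and its RefSeq neighbour LINC00511, and that row lay at 444 to 515 CPM in ΔTFR4, 192 to 376 in ΔTFR5, 334 to 728 in FL and 27.9 to 30.1 in empty vector. The labels call the cells epithelial. The melanocytic factors SOX10 and MITF were present in all libraries (at least 10.9 and 55.8 CPM), as were KRT8 and KRT18 (at least 59.1 and 228 CPM). EPCAM and TYR reached at most 0.740 and 0.0795 CPM. The other melanocytic markers PMEL, MLANA, DCT, TYRP1, S100B and S100A1 reached at most 1.90, 2.99, 0.765, 2.07, 0.828 and 5.38 CPM. The epithelial markers CDH1, KRT5 and KRT14 reached at most 5.01, 5.31 and 4.72 CPM. Replicate 1 of FL in batch 2 stood apart: the median of its genes in the highest quartile of GC content minus that in the lowest quartile was -1.01 on the log2 scale, against -0.10 to 0.25 in the other 11 libraries of that batch.

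The start regions of a few members are shown because the design turns on triplex formation, for which a run of purines facing pyrimidines is the usual DNA partner. Of the 41 members, 38 had a start region in RefSeq (GRCh38.p14); HNRNPA1, SRSF2 and TRA2A are named only. The search covered the 250 bases before each start and asked for the longest unbroken stretch of C and T alone or of A and G alone, which covers both strands. A stretch of at least 12 bases was present in 25 of the 57 start regions of members (43.9%) and in 40.2% of 35116 start regions of all genes, and the median longest stretch was 11 bases in both. Printed below, 5′ to 3′ on the gene's strand with the longest stretch in capitals (both stretches where 2 are equally long), are HNRNPAB, the member with the lowest adjusted p in both deletions of batch 2 against empty vector (chr5:178204283-178204532, plus strand), SRSF1 and HNRNPA3, lower in both (chr17:58007247-58007496, minus strand, and chr2:177212544-177212793, plus strand), and CLK1, the sole member called higher there (chr2:200864659-200864908, minus strand).
HNRNPAB: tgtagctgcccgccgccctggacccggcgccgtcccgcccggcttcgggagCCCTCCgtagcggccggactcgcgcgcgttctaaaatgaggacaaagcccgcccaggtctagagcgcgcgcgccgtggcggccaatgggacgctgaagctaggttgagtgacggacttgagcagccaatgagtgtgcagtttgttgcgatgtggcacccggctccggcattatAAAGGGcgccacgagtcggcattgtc
SRSF1: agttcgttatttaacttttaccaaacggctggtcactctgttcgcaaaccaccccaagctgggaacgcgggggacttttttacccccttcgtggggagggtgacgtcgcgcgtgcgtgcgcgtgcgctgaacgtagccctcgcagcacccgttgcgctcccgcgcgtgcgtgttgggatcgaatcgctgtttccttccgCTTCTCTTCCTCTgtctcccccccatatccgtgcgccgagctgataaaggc
HNRNPA3: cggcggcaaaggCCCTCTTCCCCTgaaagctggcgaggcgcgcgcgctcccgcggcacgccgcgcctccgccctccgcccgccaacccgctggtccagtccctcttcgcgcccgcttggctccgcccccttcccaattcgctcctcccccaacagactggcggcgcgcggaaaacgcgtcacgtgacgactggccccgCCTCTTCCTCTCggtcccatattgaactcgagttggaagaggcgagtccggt
CLK1: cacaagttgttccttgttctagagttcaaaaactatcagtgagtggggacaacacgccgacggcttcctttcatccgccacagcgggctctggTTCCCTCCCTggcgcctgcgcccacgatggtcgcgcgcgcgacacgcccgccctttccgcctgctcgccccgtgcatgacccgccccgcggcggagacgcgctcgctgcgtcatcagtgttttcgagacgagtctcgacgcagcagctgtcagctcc
The longest stretch had 6 bases in HNRNPAB and 12 in HNRNPA3, each present in 2 places, 13 in SRSF1 and 10 in CLK1. HNRNPAB, SRSF1 and HNRNPA3 had the lowest adjusted p in ΔTFR4 among members lower in both that have a single start region. HNRNPDL, lower in both with a lower adjusted p there than SRSF1, has more than a single start and was not printed. Its longest stretch was 11 bases in each start. CLK1 also has more than a single start, and the one furthest upstream is printed. Counted by gene, with any of its starts, 9 of the 12 members lower in both ΔTFR4 and ΔTFR5 against empty vector held a stretch of at least 12 bases, beside 23 of the 38 members (60.5%) and 44.1% of 27305 genes. There were 57 starts for those 38 members and 35116 for the 27305 genes. A stretch is a feature of the letters alone and was not tested as a site of binding.

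Per kb of the longest annotated transcript (GENCODE v29), the highest level among members in batch 1 was that of HNRNPK, which binds C-rich RNA, at a mean of 291 CPM per kb over the 12 libraries. It was followed by HNRNPA1, an abundant splicing repressor, at 250 CPM per kb and PTBP1, the main PTB protein outside neurons, at 165. In batch 2 HNRNPA1 stood first at 313 CPM per kb and HNRNPK second at 195, with ranges of 237 to 371 and 148 to 268 that overlapped. CLK1, CLK4 and PTBP2, the PTB protein known from neurons, lay at 6.34, 1.56 and 1.64 CPM per kb in batch 1 and at 3.10, 1.55 and 1.15 in batch 2. HNRNPH2 had 0 or 1 count per library in batch 1, under the filter on low counts, but 963 to 1654 in batch 2. The tables were made by different counting, and the cause of that gap was not tested, so 40 members were tested in batch 1 and 41 in batch 2. Over the 12 libraries the coefficient of variation of the tested members' CPM ran from 1.88% for TRA2B to 14.97% for CLK4 in batch 1, and from 8.26% for SRPK2 to 41.3% for HNRNPA2B1 in batch 2. Copies and pseudogenes with near-identical sequence, which HNRNPA1, HNRNPC, HNRNPA3 and SRSF3 have in the genome, make their counts less certain, and gene counts do not separate isoforms.

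In batch 2, 15 of the 21 hnRNP genes and 3 of the 11 SR protein genes were lower in cells with ΔTFR4 than in cells with empty vector. By edgeR's quasi-likelihood test at a Benjamini-Hochberg adjusted p under 0.05 over all 18763 genes tested, 20 of the 41 members fell and 1 rose, where 11.4% of all genes fell and 12.5% rose (23.9% in either direction). The median log2 fold change of the members was -0.40, beside 0.02 over all genes. CPM summed over the members came to 7851, 7216 and 7457 in the ΔTFR4 libraries and to 10354, 10072 and 11112 in the empty vector libraries. Of the members, 29 had all 3 ΔTFR4 libraries below all 3 empty vector libraries and 5 had them above, where 27.5% and 29.2% of all genes did. Comparisons of a deletion with empty vector were secondary. The main ones were each deletion against FL and FL against empty vector. A difference between a deletion and empty vector does not separate the loss of a TFR from the presence of SLNCR.

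The 3 largest falls were among the hnRNP A and B genes, of which 3 of 5 were called lower. HNRNPA2B1 (chr7:26173057-26201529, minus strand, GRCh38, GENCODE v29) takes part in splicing and in the transport of RNA. It lay at 225, 207 and 240 CPM in ΔTFR4 and at 549, 518 and 589 in empty vector, a log2 fold change of -1.30 ± 0.28 (standard error; edgeR adjusted p = 0.00576). Every ΔTFR4 library stood far under the lowest empty vector library. HNRNPA3, a relative of HNRNPA1, lay at 76.0, 70.0 and 82.3 CPM in ΔTFR4 and at 160, 153 and 169 in empty vector (-1.08 ± 0.19, adjusted p = 0.00229). HNRNPAB (chr5:178204507-178211163, plus strand) binds RNA and single-stranded DNA and lay at 89.2, 80.1 and 77.8 CPM in ΔTFR4 and at 162, 162 and 184 in empty vector (-1.04 ± 0.13, adjusted p = 0.000624). For these genes the ΔTFR4 level was 0.406, 0.473 and 0.487 of the empty vector level, and no library of either group overlapped the other. HNRNPA0 and HNRNPA1 did not pass: HNRNPA0 had -0.40 ± 0.27 (adjusted p = 0.306).

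**Figure D1:**
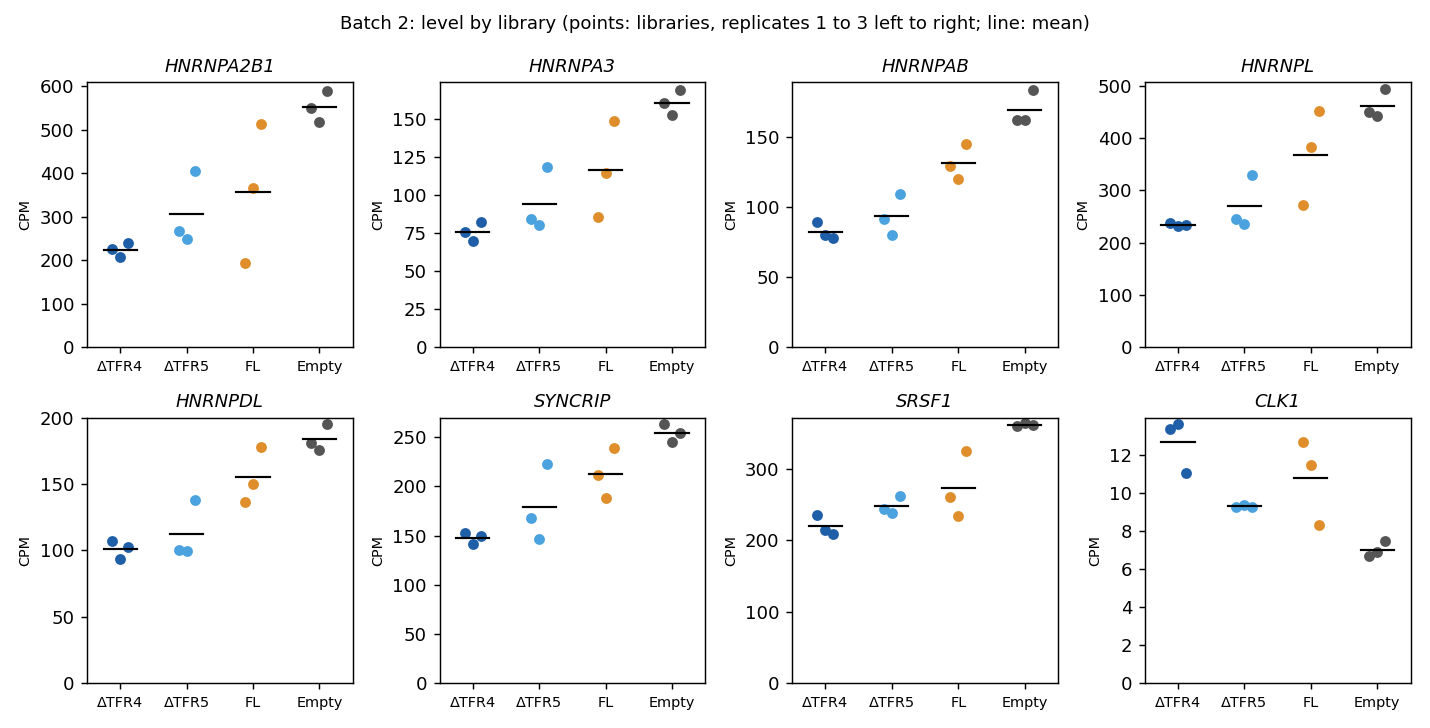
Level in CPM (y axis from 0) of 8 members in the 12 libraries of batch 2, grouped as ΔTFR4, ΔTFR5, FL and empty vector; points are libraries and the line is the group mean. For the first 7 genes the ΔTFR4 and ΔTFR5 points lie under the empty vector points and the FL mean lies between the ΔTFR5 and empty vector means, and for CLK1 the ΔTFR4 and ΔTFR5 points lie above, with 11.04 to 13.6 CPM in ΔTFR4 and 6.7 to 7.5 in empty vector.

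Both hnRNP D genes fell in ΔTFR4. HNRNPDL lay at 107, 93.7 and 103 CPM in ΔTFR4 and at 181, 175 and 195 in empty vector (-0.86 ± 0.15, adjusted p = 0.00198), and HNRNPD, which binds AU-rich elements and promotes decay of mRNAs that carry them, had -0.67 ± 0.14 (adjusted p = 0.0050). Among the hnRNP C, K and L genes, HNRNPL, which binds CA-rich RNA, lay at 237, 232 and 233 CPM in ΔTFR4 and at 449, 443 and 493 in empty vector (-0.98 ± 0.17, adjusted p = 0.00242). The ΔTFR4 libraries differed from each other by far less than from any empty vector library. HNRNPK also fell, and HNRNPC, which binds U-rich tracts, had -0.32 ± 0.11 without passing (adjusted p = 0.0583). Of the hnRNP F and H genes, which bind runs of G, HNRNPF (-0.82 ± 0.19, adjusted p = 0.00801) and HNRNPH1 (-0.53 ± 0.11, adjusted p = 0.00476) fell, as did HNRNPH2 (-0.39 ± 0.13, adjusted p = 0.0418), whereas HNRNPH3 had -0.21 ± 0.18 (adjusted p = 0.425).

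Among the hnRNP M, R, Q and U genes 5 of 6 fell. SYNCRIP, which encodes hnRNP Q, lay at 153, 142 and 150 CPM in ΔTFR4 and at 264, 245 and 254 in empty vector (-0.78 ± 0.15, adjusted p = 0.00318). Its close relative HNRNPR fell by a similar amount (-0.77 ± 0.18, adjusted p = 0.00825), and HNRNPU, a nuclear scaffold protein, HNRNPUL1 and HNRNPM had between -0.66 and -0.44. HNRNPUL2 had -0.46 ± 0.20 and did not pass (adjusted p = 0.102). PTBP1, which represses exons through pyrimidine-rich tracts, was the 1 PTB gene of 3 to fall, at -0.54 ± 0.13 (adjusted p = 0.0113).

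Of the 11 SR protein genes 3 fell in ΔTFR4, and neither TRA2 gene passed. SRSF1 (chr17:58003360-58007346, minus strand), a classical SR protein, lay at 235, 214 and 210 CPM in ΔTFR4 and at 360, 364 and 362 in empty vector (-0.72 ± 0.12, adjusted p = 0.00205), while the empty vector libraries were almost level. SRSF2 had -0.73 ± 0.18 (adjusted p = 0.0127) and SRSF4 -0.38 ± 0.11 (adjusted p = 0.0251). The largest difference among SR genes that did not pass was that of SRSF9, at -0.42 ± 0.21 (adjusted p = 0.174). Of the kinases, CLK1 (chr2:200853009-200864744, minus strand), which phosphorylates SR proteins in the nucleus, lay at 13.4, 13.6 and 11.04 CPM in ΔTFR4 and at 6.7, 6.9 and 7.5 in empty vector (0.86 ± 0.17, adjusted p = 0.0040). SRPK1, which phosphorylates them in the cytoplasm for import into the nucleus, moved the other way (-0.48 ± 0.11, adjusted p = 0.00933), while CLK4 and SRPK2 did not pass.

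Leaving out each ΔTFR4 or empty vector library in turn left 12 to 16 members called, where 2309 to 2914 of all genes were, against 4489 with all libraries. The 12 members called in all 6 of those fits were CLK1, SRSF1, HNRNPA2B1, HNRNPA3, HNRNPAB, HNRNPD, HNRNPDL, HNRNPF, HNRNPH1, HNRNPL, HNRNPR and SYNCRIP.

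ΔTFR5 libraries also had lower levels of hnRNP genes than the same empty vector libraries. Of the 41 members 13 fell and 0 rose, where 4.68% of all genes fell and 5.48% rose (10.2% in either direction), and the members' median log2 fold change was -0.35, beside 0.02 over all genes. CPM summed over the members came to 7665, 7602 and 8685 in ΔTFR5 and to 10354, 10072 and 11112 in empty vector. All 3 ΔTFR5 libraries lay below all 3 empty vector libraries for 31 members and above them for 3, where 21.8% and 22.8% of all genes did. The 3 above were CLK1, CLK4 and SRPK2, none of which passed (CLK1 had 0.41 ± 0.17, adjusted p = 0.144).

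The lowest adjusted p was again that of HNRNPAB, with 91.3, 80.03 and 109 CPM in ΔTFR5 and 162, 162 and 184 in empty vector (-0.86 ± 0.13, edgeR adjusted p = 0.00267). HNRNPDL lay at 99.9, 99.7 and 138 CPM in ΔTFR5 and at 181, 175 and 195 in empty vector (-0.71 ± 0.14, adjusted p = 0.0109). In HNRNPDL, as in several members, replicate 3 of ΔTFR5 stood nearer to empty vector than the other two. HNRNPH1 lay at 204, 204 and 215 CPM in ΔTFR5 and at 293, 278 and 309 in empty vector (-0.50 ± 0.11, adjusted p = 0.0137). For HNRNPL the ΔTFR5 libraries had 244, 236 and 330 CPM and the empty vector libraries 449, 443 and 493 (-0.77 ± 0.17, adjusted p = 0.0162). The SRSF1 libraries were tighter, at 244, 239 and 262 CPM in ΔTFR5 and 360, 364 and 362 in empty vector (-0.55 ± 0.12, adjusted p = 0.0165). HNRNPA3 lay at 84.7, 80.5 and 118 CPM in ΔTFR5 and at 160, 153 and 169 in empty vector (-0.77 ± 0.19, adjusted p = 0.0230). In none of these 6 genes did a ΔTFR5 library reach the lowest empty vector library.

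HNRNPD, HNRNPH2, PTBP1, SRSF4, HNRNPC and SYNCRIP followed, with log2 fold changes between -0.55 and -0.40 and adjusted p between 0.0240 and 0.0452, and HNRNPK passed at -0.49 (adjusted p = 0.0465). HNRNPA2B1 had 267, 249 and 406 CPM in ΔTFR5 and 549, 518 and 589 in empty vector, and with that spread it did not pass (-0.85 ± 0.27, adjusted p = 0.0677). By family, 2 of 11 SR genes, 2 of 5 hnRNP A and B genes, 3 of 4 hnRNP C, K and L genes, both hnRNP D genes, 2 of 4 hnRNP F and H genes, 1 of 6 hnRNP M, R, Q and U genes and 1 of 3 PTB genes fell, and no TRA2 or kinase gene passed.

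The count in ΔTFR5 depended on single libraries. Without replicate 1, 2 or 3 of empty vector 2, 3 and 1 members were called, and without replicate 1, 2 or 3 of ΔTFR5 1, 1 and 12, HNRNPAB being the 1 member called in all 6 fits. Of all genes, 2.27% to 8.96% were called in those fits, and the share called in all 6 was not counted. SLNCR itself was lowest in ΔTFR5 replicate 3, at 192 CPM, against 321 and 376 in replicates 1 and 2, and its part in the members' levels was not tested.

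Since ΔTFR4 and ΔTFR5 share the empty vector libraries, their values are given side by side. In 12 members both were called lower: SRSF1 (-0.72 in ΔTFR4 and -0.55 in ΔTFR5), SRSF4 (-0.38 and -0.40), HNRNPA3 (-1.08 and -0.77), HNRNPAB (-1.04 and -0.86), HNRNPD (-0.67 and -0.55), HNRNPDL (-0.86 and -0.71), HNRNPH1 (-0.53 and -0.50), HNRNPH2 (-0.39 and -0.49), HNRNPK (-0.48 and -0.49), HNRNPL (-0.98 and -0.77), SYNCRIP (-0.78 and -0.51) and PTBP1 (-0.54 and -0.51). This joint count was made for members alone, so the share of all genes called lower in both is not known. Taken apart, 11.4% of all genes fell in ΔTFR4 and 4.68% in ΔTFR5. Set directly against each other, ΔTFR5 and ΔTFR4 gave 0 calls among members, where 0.453% of all genes were called. At an unadjusted p under 0.05 there was 1 member, CLK1, beside 9.7% of all genes. CLK1 had a mean of 9.29 CPM in ΔTFR5 and 12.7 in ΔTFR4 (-0.45 ± 0.17, edgeR adjusted p = 0.425). DESeq2 called 0 members, where it called 1.06% of all genes. The members' median between the deletions was 0.03, with 23 positive and 18 negative values.

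**Figure D2:**
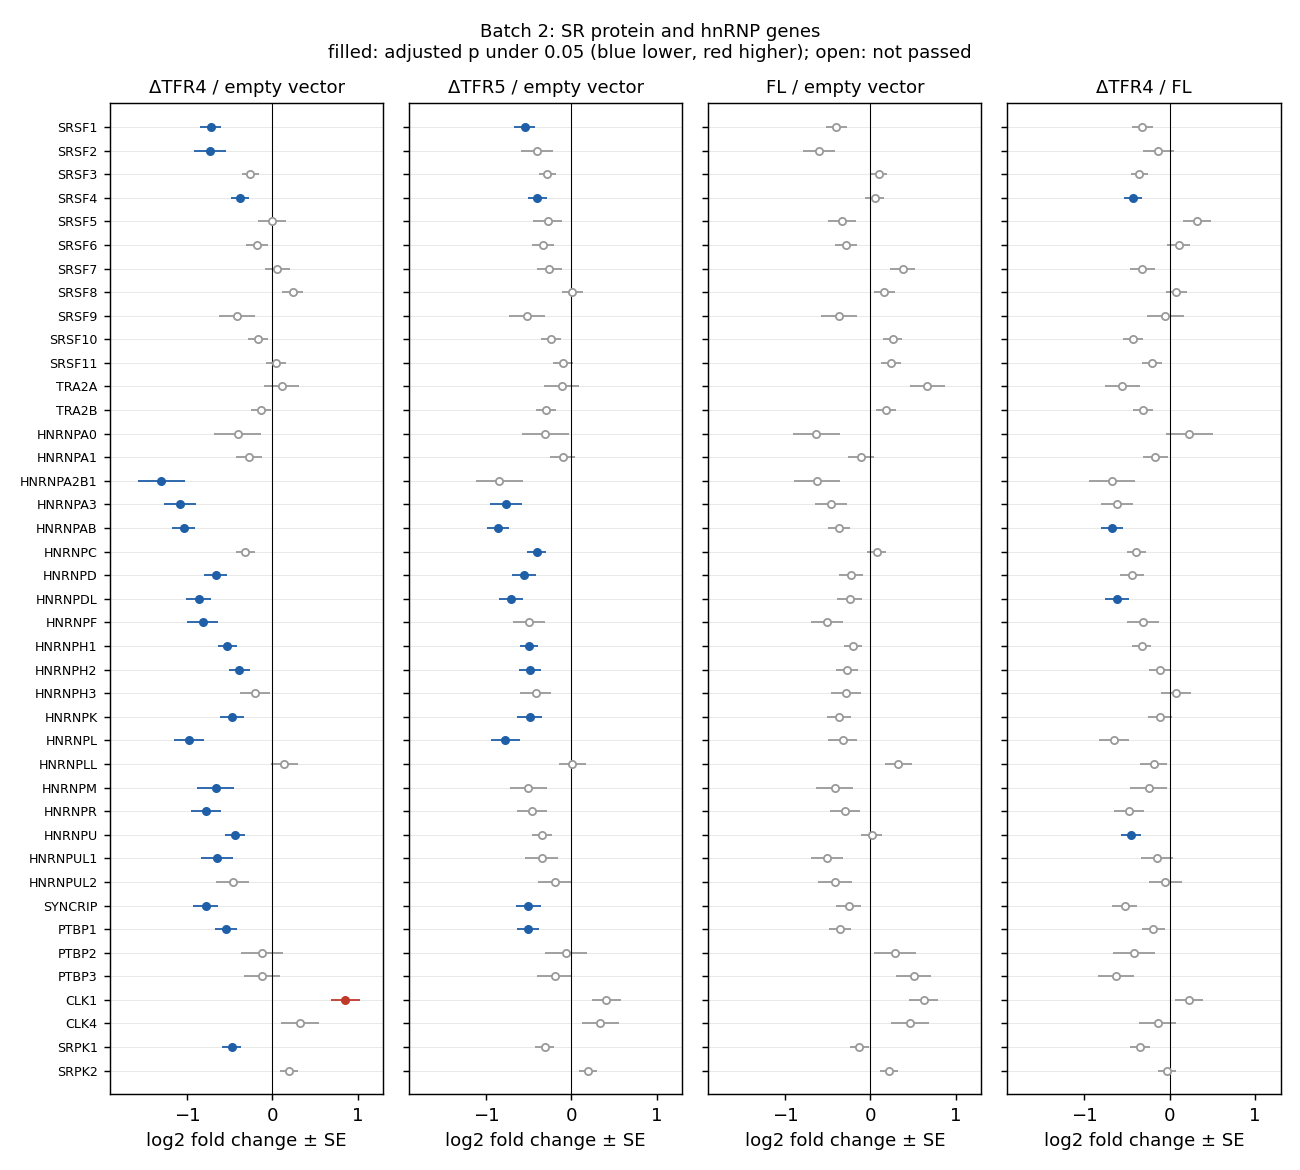
Log2 fold change ± standard error (x axis) of the 41 members in batch 2 for ΔTFR4 over empty vector, ΔTFR5 over empty vector, FL over empty vector and ΔTFR4 over FL; filled points passed edgeR's adjusted p under 0.05, blue lower and red higher. The first panel has 20 blue points and 1 red (CLK1), the second 13 blue, the third none, and the last 4 blue.

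With full-length SLNCR in batch 2, the levels of HNRNPA2B1, HNRNPL and other members differed between replicates. Against empty vector 0 of 41 members passed edgeR's test, where 1.16% of all genes did, while 16 members and 26.3% of all genes had an unadjusted p under 0.05 and DESeq2 called 4, where it called 12.3% of all genes. The members' median was -0.25, beside 0.02 over all genes, with 12 members entirely below and 2 entirely above empty vector, where 11.2% and 11.8% of all genes were. CLK1 had the lowest adjusted p, at 12.7, 11.4 and 8.3 CPM in FL and 6.7, 6.9 and 7.5 in empty vector (0.63 ± 0.17, adjusted p = 0.0683). SRSF2 lay at 119, 147 and 223 CPM in FL and at 235, 236 and 272 in empty vector (-0.60 ± 0.18, adjusted p = 0.0837). TRA2A, an activator of exon inclusion, had the largest difference, at 107, 89.1 and 50.3 CPM in FL and 50.3, 49.6 and 55.7 in empty vector (0.66 ± 0.21, adjusted p = 0.0873). In each of these genes replicate 3 of FL lay nearest to empty vector, and so did its sum over the members, with 8250, 9432 and 10059 CPM in FL replicates 1 to 3.

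Replicate 3 of FL also had the least SLNCR of its group, 334 CPM against 728 and 658. Without that library 23 members were called in FL against empty vector, 8 higher and 15 lower, where 17.0% of all genes were higher and 13.8% lower. Without replicate 1, the library that stood apart in GC content, 0 members were called, where 0.26% of all genes were. The members' median was then -0.13. Across the 41 members the log2 fold change of FL over empty vector had a Spearman rho with transcript GC content of -0.51, and across 18390 genes of all kinds -0.30, as a description of these libraries.

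Each deletion was then set against FL. In ΔTFR4 against FL 4 members fell and 0 rose, where 2.47% of all genes fell and 1.9% rose (4.36% in either direction). HNRNPAB lay at 89.2, 80.1 and 77.8 CPM in ΔTFR4 and at 129, 120 and 145 in FL (-0.67 ± 0.13, edgeR adjusted p = 0.0156). HNRNPDL lay at 107, 93.7 and 103 CPM in ΔTFR4 and at 137, 150 and 178 in FL (-0.62 ± 0.14, adjusted p = 0.0335). The lowest FL library of both genes was above the highest ΔTFR4 library. SRSF4 lay at 55.7, 56.7 and 60.3 CPM in ΔTFR4 and at 83.6, 77.8 and 71.1 in FL (-0.43 ± 0.11, adjusted p = 0.0452). HNRNPU lay at 631, 601 and 583 CPM in ΔTFR4 and at 914, 774 and 794 in FL (-0.45 ± 0.12, adjusted p = 0.0492). The groups of SRSF4 and HNRNPU did not overlap either. The members' median was -0.31, beside -0.02 over all genes, and 35 of 41 values were negative. The count moved between 0 and 16 as single libraries were left out. It was 0 with any 1 of the ΔTFR4 libraries left out, where 0.406% to 0.863% of all genes were called. It was 16 with FL replicate 1 left out, where 8.88% of all genes were called, and 11 with FL replicate 3 left out, where 11.4% were. SRSF4 and HNRNPU did not pass with the GC trend removed (adjusted p = 0.117 and 0.122), whereas HNRNPAB and HNRNPDL did, and DESeq2 called 14 lower, where it called 6.78% of all genes lower.

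In ΔTFR5 against FL 0 members passed, where 1.38% of all genes did, with 15 members and 20.8% of all genes at an unadjusted p under 0.05 and 11 called lower by DESeq2, where 4.66% of all genes were. SRSF10, an SR protein that represses splicing when it is dephosphorylated, had the lowest adjusted p, with means of 106 ± 4.10 CPM in ΔTFR5 and 149 ± 22.1 in FL (SD, n = 3 each; -0.50 ± 0.11, edgeR adjusted p = 0.0532). The largest difference was that of TRA2A (-0.78 ± 0.21, adjusted p = 0.0750), whose groups overlapped. The members' median was -0.22, with 34 of 41 values negative, and the test called 9 members with FL replicate 1 left out, where 3.1% of all genes were called, and 13 with FL replicate 3 left out, where 17.9% were.

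Genes that encode other splicing factors were counted from lists of 40 core spliceosome genes and 41 other splicing regulators. In ΔTFR4 against empty vector 0 core genes rose and 19 fell of 40 tested, where 12.5% and 11.4% of all genes did. The core median was -0.41, with 39 negative values. The lowest adjusted p were those of DHX15, a helicase that takes spent spliceosomes apart (-0.83, adjusted p = 0.000683), DDX46, a helicase of early assembly (-0.74, adjusted p = 0.00108), and SF3B4, which helps to hold the branch point (-0.72, adjusted p = 0.00213). Of 39 other regulators 3 rose and 11 fell, beside the same shares of all genes. TARDBP (-1.28, adjusted p = 0.000511), PNN (-1.34, adjusted p = 0.00108) and FUBP1 (-0.94, adjusted p = 0.0020) fell, whereas RBM5 (0.53, adjusted p = 0.0155), the kinase CLK3 (0.59, adjusted p = 0.0240) and SRRM2 (0.44, adjusted p = 0.0414) rose. In ΔTFR5 against empty vector 7 core genes fell, again led by DHX15 (-0.70, adjusted p = 0.00287) and DDX46 (-0.68, adjusted p = 0.00337). There 5 other regulators fell, led by TARDBP (-0.85, adjusted p = 0.0065), where 4.68% of all genes fell. In ΔTFR4 against FL 4 core genes and 4 other regulators fell and none of either list rose. Of all genes 2.47% fell and 1.9% rose there. In FL against empty vector 0 of either list passed edgeR's test, where 1.16% of all genes did. At an unadjusted p under 0.05 there were 13 core genes and 10 other regulators, beside 26.3% of all genes. The core median in FL against empty vector was -0.25, with 35 of 40 values negative. That of the other regulators was -0.08, with 24 of 39 values negative. The lower levels in the deletions of batch 2 were not confined to SR proteins and hnRNPs.

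Markers of the melanocytic lineage, 9 genes, summed to 133 to 150 CPM in ΔTFR4, 116 to 128 in ΔTFR5, 128 to 248 in FL and 149 to 161 in empty vector, nearly all of it SOX10 and MITF. The 6 epithelial markers summed to 420 to 533 CPM in ΔTFR4, 577 to 626 in ΔTFR5, 294 to 698 in FL and 579 to 641 in empty vector, nearly all of it KRT8 and KRT18. Of the leukocyte markers, CD68 lay between 182 and 253 CPM over the 12 libraries, and PTPRC and CD3E reached at most 2.79 and 0.3003 CPM. The 3 endothelial markers summed to at most 2.22 CPM in any library. The part of these markers in the members' levels was not tested.

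In batch 1 the differences between groups were small. FL against empty vector called 12 of 40 members, 6 higher and 6 lower, where 11.4% of all 14310 genes tested were higher and 11.3% lower (22.7% in all). All 12 log2 fold changes lay between -0.25 and 0.26, and the members' median was 0.02, beside -0.02 over all genes. Sums of CPM over the members ranged from 11403 to 12057 over the 12 libraries of batch 1. The epithelial markers summed to 414 to 469 CPM in FL and to 525 to 584 in empty vector, and their part in the members' levels was not tested.

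PTBP3, a PTB protein expressed in blood cells among others, lay at 200, 195 and 229 CPM in FL and at 173, 167 and 181 in empty vector (0.26 ± 0.05, edgeR adjusted p = 0.00169). SRSF3, a small SR protein, lay at 385, 379 and 400 CPM in FL and at 336, 350 and 359 in empty vector (0.15 ± 0.04, adjusted p = 0.00906). In both, the lowest FL library exceeded the highest empty vector library. SRSF1 lay at 535, 511 and 586 CPM in FL and at 483, 475 and 513 in empty vector, with overlap (0.15 ± 0.05, adjusted p = 0.0201). SRSF2 lay at 396, 389 and 423 CPM in FL and at 350, 384 and 366 in empty vector (0.14 ± 0.04, adjusted p = 0.0245). SRSF11 (0.15, adjusted p = 0.0369) and HNRNPU (0.11, adjusted p = 0.0386) also rose, so that 4 of the 6 that rose were SR genes.

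HNRNPUL1 had the lowest adjusted p of the members that fell, with 385, 403 and 368 CPM in FL and 469, 424 and 411 in empty vector (-0.17 ± 0.05, edgeR adjusted p = 0.00978). HNRNPL lay at 458, 457 and 431 CPM in FL and at 510, 480 and 498 in empty vector (-0.14 ± 0.04, adjusted p = 0.0183). No FL library of HNRNPUL1 or HNRNPL reached the lowest empty vector library. HNRNPM (-0.15, adjusted p = 0.0281), PTBP1 (-0.13, adjusted p = 0.0287), HNRNPA1 (-0.15, adjusted p = 0.0389) and HNRNPA0 (-0.25, adjusted p = 0.0464) followed. The largest difference of a member that did not pass was that of CLK4, at 0.40 ± 0.17 (adjusted p = 0.0908). Leaving out single libraries gave 1 to 13 calls, where 8.17% to 28.1% of all genes were called, with 1, 6 and 2 calls without empty vector replicate 1, empty vector replicate 2 and FL replicate 3, and PTBP3 was the 1 member called in all 6 fits. The share of all genes called in all 6 was not counted.

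These small differences ran with the GC content of the transcripts. The difference between the highest and the lowest GC quartile of genes was -0.41 to -0.12 in the FL libraries and 0.03 to 0.24 in the empty vector libraries, on the log2 scale. The Spearman rho of log2 fold change with GC content was -0.57 across 40 members and -0.68 across 13475 genes. With each library's GC trend removed, 7 members were called, all lower, where 1.15% of all genes were, and none of them was among the 12: HNRNPH1 (-0.24, adjusted p = 0.00519), SRSF9, HNRNPC, HNRNPK, HNRNPD, HNRNPR and TRA2B. PTBP3 then had 0.04 (adjusted p = 0.702). The GC content of the members had a median of 41.1% (34.7% to 61.7%), beside 48.1% for all genes tested in batch 2.

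**Figure D3:**
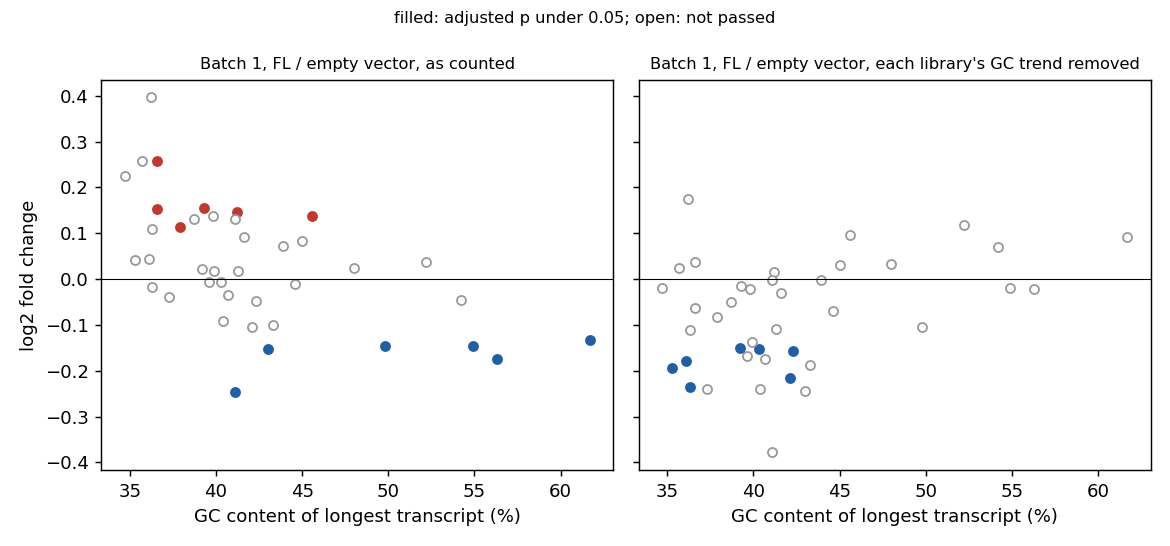
Log2 fold change of FL over empty vector in batch 1 (y axis) against the GC content of each member's longest transcript in percent (x axis), as counted on the left and with each library's GC trend removed on the right; filled points passed the adjusted p under 0.05, red higher and blue lower. On the left 6 red points lie between 36.6% and 45.6% GC and 6 blue points between 41.1% and 61.7%, and on the right 7 blue points remain, all of them other genes.

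Against FL the deletions of batch 1 gave a few small differences, and these comparisons share the FL libraries with the one above. In ΔTFR1 against FL 0 members rose and 4 fell, where 4.4% of all genes rose and 5.66% fell (10.1% in either direction). SRSF3 lay at 345, 351 and 341 CPM in ΔTFR1 and at 385, 379 and 400 in FL (-0.17 ± 0.04, edgeR adjusted p = 0.0154). PTBP3 lay at 177, 177 and 187 CPM in ΔTFR1 and at 200, 195 and 229 in FL (-0.20 ± 0.05, adjusted p = 0.0194). SRSF1 (-0.16, adjusted p = 0.0301) and TRA2A (-0.20, adjusted p = 0.0466) had groups that did not overlap either. In ΔTFR2 against FL 3 members rose and 5 fell, where 4.86% of all genes rose and 5.15% fell (10% in either direction). SRSF1 lay at 468, 482 and 482 CPM in ΔTFR2 and at 535, 511 and 586 in FL (-0.19 ± 0.05, adjusted p = 0.0146). PTBP3 lay at 178, 177 and 185 CPM in ΔTFR2 and at 200, 195 and 229 in FL (-0.20 ± 0.05, adjusted p = 0.0187). SRSF3, SRSF2 and SRSF10 fell too, by 0.14 to 0.17 on the log2 scale. HNRNPL (0.16, adjusted p = 0.0256), HNRNPA1 (0.19, adjusted p = 0.0289) and HNRNPUL1 (0.16, adjusted p = 0.0324) rose. With each library's GC trend removed, 0 members were called in either comparison, where 0.119% and 0.175% of all genes were. With single libraries left out the counts ran from 0 to 8 for ΔTFR1 and from 0 to 13 for ΔTFR2. The count for ΔTFR1 was 0 without ΔTFR1 replicate 1, where 0.152% of all genes were called. For ΔTFR2 it was 0 without FL replicate 3 or ΔTFR2 replicate 2, where 1.28% and 0% were. The highest counts came without FL replicate 2, where 19.0% and 18.7% of all genes were called.

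**Figure D4:**
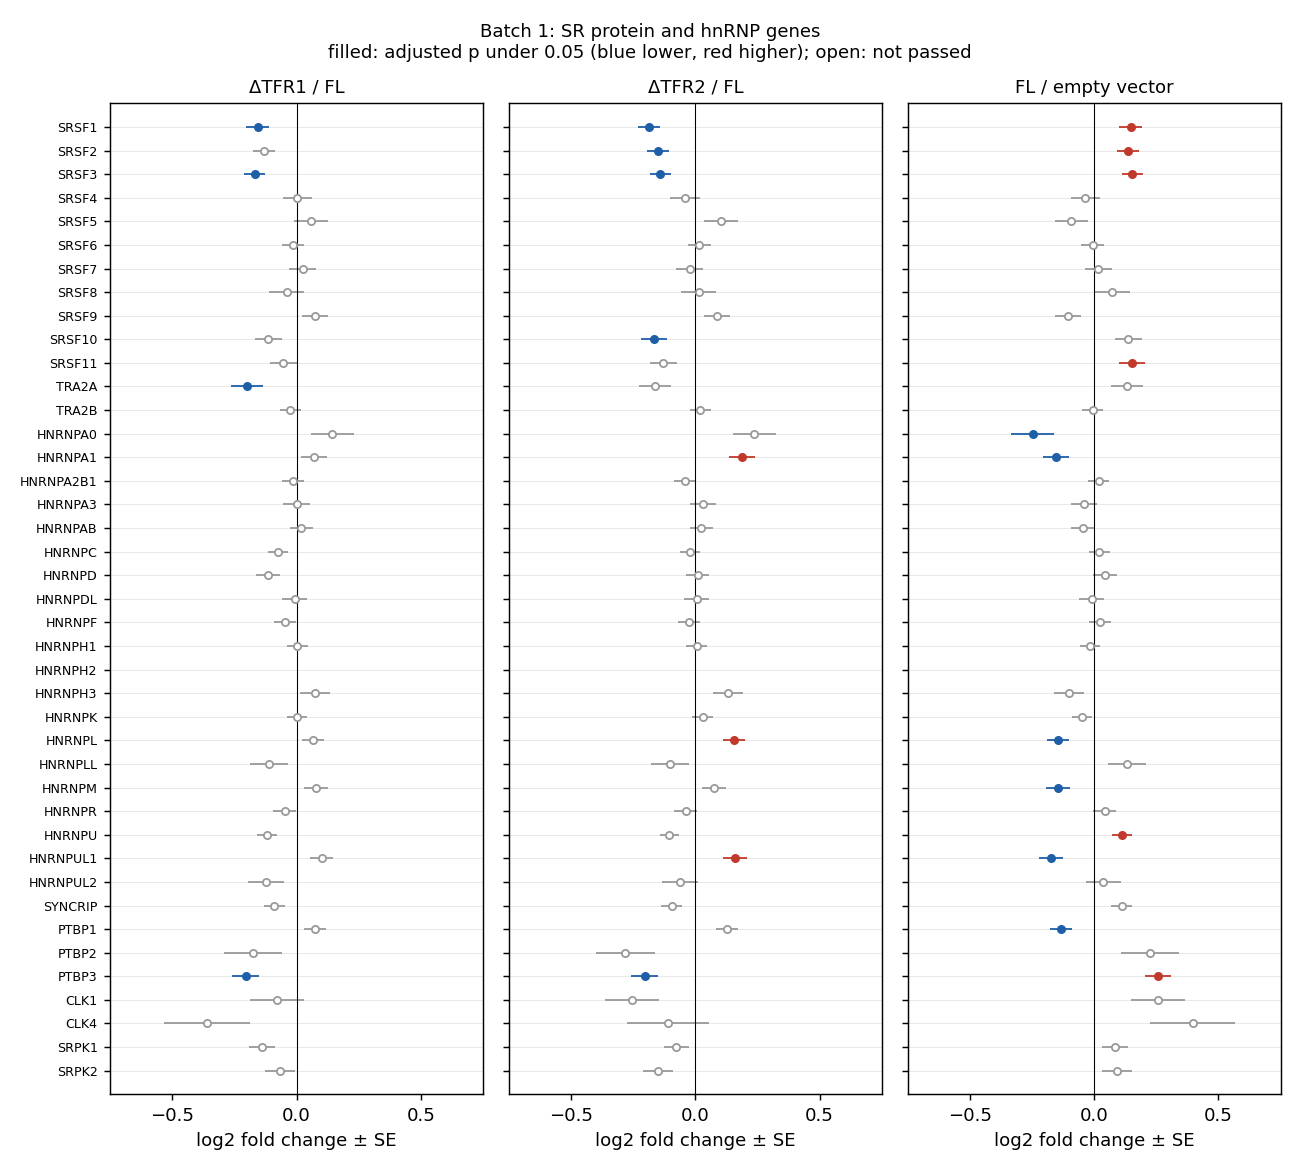
Log2 fold change ± standard error (x axis) of the members in batch 1 for ΔTFR1 over FL, ΔTFR2 over FL and FL over empty vector, with filled points past the adjusted p under 0.05 (blue lower, red higher) and no point for HNRNPH2, which was not tested. SRSF1, SRSF3 and PTBP3 are red in the last panel and blue in the others.

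Against empty vector no member passed edgeR's test in either deletion of batch 1. In ΔTFR1 against empty vector and in ΔTFR2 against empty vector 0 of 40 members passed, where 0.00699% and 0.014% of all genes did. In either, 0 members had an unadjusted p under 0.05, where 4.12% and 4.17% of all genes did. The members' median log2 fold changes were -0.02 and -0.0035. In ΔTFR2 against ΔTFR1 0 members passed, where 0% of all genes did. There 3 members had an unadjusted p under 0.05, where 3.85% of all genes did. DESeq2 also called 0 members in each of these comparisons, where it called 0.00445%, 0.00889% and 0% of all genes. Among the other splicing factors, 2 of 39 core spliceosome genes tested rose and 7 fell in FL against empty vector in batch 1, among them SNRPB2 (0.31, edgeR adjusted p = 0.00858) and AQR (0.23, adjusted p = 0.00881) upward and SNRNP70 (-0.36, adjusted p = 0.00114), U2AF2 (-0.22, adjusted p = 0.00118) and SF3A2 (-0.40, adjusted p = 0.00192) downward. Of 39 other regulators 6 rose and 8 fell there, counts to be read against the 11.4% of all genes that rose and the 11.3% that fell, with MBNL1 (0.29, adjusted p = 0.000703) and TIA1 (0.30, adjusted p = 0.00293) upward and PUF60 (-0.30, adjusted p = 0.0010) and RBM10 (-0.27, adjusted p = 0.00324) downward.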

How the data were processed

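RNA of A375 cells was depleted of ribosomal RNA and sequenced on an Illumina HiSeq, per the labels. For batch 1 the authors deposited raw counts by gene symbol; for batch 2 they deposited estimated counts, made with salmon per the table's name, and these were rounded to whole numbers here. Per the submitters' processing notes the tools included FastQC 0.11.5, STAR 2.7.3a, cutadapt 2.5, featureCounts in Subread 1.6.2 and DESeq2 1.24.0, with GRCm38 and GRCh38 as builds of unstated role. For salmon's version, the annotation and strandedness, nothing is given in the sources used here. Part of the libraries, 6 of them, had been used in an earlier series, per the design text, which does not say which.

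Each table was fitted on its own, and levels were not compared between tables. Genes passed filterByExpr (minimum count 10, minimum total 15) and were tested in edgeR 4.0.16 (R 4.3.3) with TMM factors and the robust quasi-likelihood test, in 1 model per batch of 12 libraries with group as the term. Adjusted p follow Benjamini and Hochberg over all genes tested. CPM use TMM library sizes, and log2 fold changes are those of the edgeR fit at its default prior count. A prior count of 2 was used for log-scale CPM in the GC quartiles and the GC and length trends. The standard error is the size of the log2 fold change over the square root of F. The code was tested on simulated data. Alternatives were DESeq2 1.42.0, RLE factors, no filter, the 2 groups alone, the replicate number as a block, GC and length trends of GENCODE v29 transcripts removed by lowess (span 0.3), and each library left out. Replicates of each group differed by more than sampling noise (chi-square per gene 1.48 to 192). The labels call them biological replicates.

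The members and gene lists were chosen with earlier results of these data known. In each comparison the called members are named, at most 12, and levels per library are given for at most 6, lowest adjusted p first. HNRNPA2B1, the member with the largest fall, and CLK1, the one that rose, were added after their values were seen, as were the called members past the 12 lowest p in ΔTFR4 and in ΔTFR5 against empty vector and the levels in FL against empty vector of batch 2, where no member passed. Of members that did not pass, those with the largest difference in their family are named. MATR3 names 2 rows in batch 2 and was left out of its list there. A further marker gene is not reported here.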

Additional observations from a re-analysis of the deposited data

Results flagged for a closer look

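In 3 members FL moved away from empty vector in opposite directions in the 2 batches, with all 3 FL libraries on one side of all 3 empty vector libraries in each batch. SRSF2 had a log2 fold change of 0.14 in batch 1 and -0.60 in batch 2, SYNCRIP 0.11 and -0.26, and SRPK1 0.0835 and -0.13. This was counted for members alone, so the share of all genes that did the same is not known. In batch 1, 12 tested members lay entirely above and 6 entirely below empty vector. The matching shares of all genes are not given for batch 1, so these counts cannot be read as a trait of the members. In batch 2, 2 members lay above and 12 below, where 11.8% and 11.2% of all genes did. The difference between the batches was not tested, since the tables were counted in different ways. Of these 6 values, that of SRSF2 in batch 1 passed the adjusted p of edgeR.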

How the results depend on the processing

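Counts of members called are given for each alternative that moved them by over 1.5 times. FL against empty vector in batch 1 had 12 members called, against 7 with the GC trend removed and 2 with the 2 groups alone, and from 1 to 13 with single libraries left out. Of all genes 22.7% were called, against 2.32% with the GC trend removed (8.17% to 28.1% with single libraries left out). The fit of the 2 groups alone called 8.06% of all genes higher and 6.95% lower, where 2 members were higher and 0 lower. With the GC trend removed, with GC and length trends removed, and with the replicate block and the GC trend removed, 4 called members changed sign: SRSF3 to -0.015, -0.0225 and -0.0152, SRSF11 to -0.063, -0.0699 and -0.0628, HNRNPU to -0.0828, -0.068 and -0.0832, and PTBP1 to 0.0915, 0.0834 and 0.0914. ΔTFR1 against FL had 4, against 7 with no filter, 7 with the replicate block, 0 with the GC trend or GC and length trends removed, 1 with block and GC together and 0 with the 2 groups alone (0 to 8 with single libraries left out). Of all genes 10.1%, 8.37%, 15.6%, 0.119%, 0.105%, 0.86% and 2.18% were called in that order (0.152% to 19.0% with single libraries left out). ΔTFR2 against FL had 8, against 0 with the GC trend or GC and length trends removed, 2 with block and GC together and 2 with the 2 groups alone (0 to 13). Of all genes 10.0%, 0.175%, 0.28%, 1.27% and 5.2% were called in that order (0% to 18.7%). In batch 2, FL against empty vector had 0, against 2 with no filter, 1 with GC and length trends removed, 5 with block and GC together and 4 by DESeq2 (0 to 23). Of all genes 1.16%, 2.28%, 4.43%, 10.0% and 12.3% were called in that order (0.031% to 30.7%). ΔTFR4 against FL had 4, against 0 with the 2 groups alone and 14 by DESeq2 (0 to 16). Of all genes 4.36%, 0.189% and 11.3% were called in that order (0.406% to 11.4%). ΔTFR5 against FL had 0, against 3 with no filter, 6 with the GC trend removed, 5 with GC and length trends removed, 3 with block and GC together and 11 by DESeq2 (0 to 13). Of all genes 1.38%, 1.22%, 4.61%, 4.31%, 4.05% and 8.05% were called in that order (0.098% to 17.9%). ΔTFR4 against empty vector had 21, and 12 to 16 with single libraries left out; the 2 groups alone gave 31, where 51.9% of all genes were called. ΔTFR5 against empty vector had 13, against 20 with block and GC together and 30 with the 2 groups alone (1 to 12). Of all genes 10.2%, 18.9% and 32.0% were called in that order (2.27% to 8.96%). ΔTFR5 against ΔTFR4 had 0, against 1 with the 2 groups alone, where 0.453% and 6.33% of all genes were called. Leaving out FL replicate 1 of batch 2, an alternative added after the data were seen, gave 27 for ΔTFR4 and 27 for ΔTFR5 against empty vector, where 38.1% and 23.9% of all genes were called. The replicate numbers did not pair the libraries (correlations of deviations between same-numbered libraries -0.142 to 0.197). The block alone gave 14, 7 and 10 calls in the main comparisons of batch 1 and 0, 5 and 0 in those of batch 2 with FL as a group. Of all genes 26.0%, 15.6%, 15.2%, 2.13%, 4.47% and 0.906% were called in that order. For ΔTFR4 and ΔTFR5 against empty vector the block gave 21 and 14 calls. In ΔTFR4 24.1% of all genes were called with it. In ΔTFR5 5.78% of all genes were higher and 5.23% lower with the block, where 0 members were higher and 14 lower. Of the 4 members called in ΔTFR4 against FL, 2 (HNRNPAB and HNRNPDL) were among those called with the block, with the GC trend removed, with GC and length trends removed and with no filter, and of the 13 in ΔTFR5 against empty vector 12 were with the block. The cause of these shifts was not tested. Depth limits the precision of CLK4, with 38 to 74 counts per library in batch 1.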
